A study of Mus musculus with 6 samples.

Results

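The epidermal growth factor (EGF) family couples secreted ligands to the ERBB receptor tyrosine kinases, and 10 of its genes were followed here through whole uteri that had lost Gp130 from the epithelium. They were 7 ligand genes (Areg, Ereg, Hbegf, Egf, Tgfa, Btc and Nrg1) and 3 receptor genes (Egfr, Erbb2 and Erbb3), chosen as a family by name and matched by gene identifier among the 56748 genes of each deposited table. Of these 10, 9 passed the filter on low counts, and Ereg did not. The RNA came from the whole uterus of 3 control and 3 Gp130 ecKO females of C57BL/6 background (C57BL/6J in the study's methods). The females were sexually mature (over 8 weeks of age) and were sampled at 1600 h on day 4 of pregnancy, when a blastocyst is about to attach. Gp130 ecKO females were Ltf iCre/+; Gp130 flox/flox, so that iCre is driven by the lactoferrin gene, which is active in the adult uterine epithelium and also in neutrophils. Control females are labelled WT, and the study's methods describe controls as either Ltf +/+; Gp130 flox/flox or wildtype. The libraries were strand-specific single reads of 75 bp, and the comparison asks which genes of the uterus differ when Gp130, the receptor subunit shared by LIF and other IL6-type cytokines, is deleted from the epithelium.

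EGF-type ligands are made as membrane-bound precursors, cut free by metalloproteases of the ADAM family, and bind the receptors through a small fold held by 3 disulphide bonds, the EGF-like motif. EGFR binds amphiregulin (Areg), epiregulin (Ereg), HB-EGF (Hbegf), EGF, TGF-alpha (Tgfa) and betacellulin (Btc), whereas neuregulin 1 (Nrg1) binds ERBB3 and ERBB4. ERBB2 has no known ligand and serves as the preferred partner of the other receptors, and ERBB3 signals mainly through such a partner because its own kinase is weak. In the mouse uterus amphiregulin is known as a progesterone-responsive transcript of the luminal epithelium, and HB-EGF as an early epithelial response to the blastocyst.

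The genes of 3 of these ligands lie close together on chromosome 5 of GRCm39. Ereg (ENSMUSG00000029377) spans 91222157 to 91241505 on the plus strand, Areg (ENSMUSG00000029378) spans 91287451 to 91296291 on the plus strand, and Btc (ENSMUSG00000082361) spans 91505120 to 91550883 on the minus strand. A further ligand gene, Epgn (epigen), lies beside them at 91175323 to 91183074. The coding bases of the EGF-like motif are shown for these neighbours and for Tgfa, because they are the part that makes these genes one family and because the neighbours differed in what was measured. Each run goes 5′ to 3′ along the coding strand, with the codons of the 6 cysteines in capitals, and was read from GENCODE M39 transcripts on GRCm39.
Areg: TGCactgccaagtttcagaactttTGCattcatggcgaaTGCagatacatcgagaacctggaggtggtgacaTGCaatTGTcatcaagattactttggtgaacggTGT
Ereg: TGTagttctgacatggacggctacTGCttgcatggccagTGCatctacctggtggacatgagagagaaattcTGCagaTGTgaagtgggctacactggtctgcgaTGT
Btc: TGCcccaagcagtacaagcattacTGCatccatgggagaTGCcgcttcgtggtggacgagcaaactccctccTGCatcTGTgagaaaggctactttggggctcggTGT
Tgfa: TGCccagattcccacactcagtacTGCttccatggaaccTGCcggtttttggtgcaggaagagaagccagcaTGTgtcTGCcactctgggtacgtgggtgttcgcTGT

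All 4 runs are 108 bases long and cross from exon 3 to exon 4 of their transcript, at 91291473 to 91292223 in Areg, 91236355 to 91236970 in Ereg, 91510280 to 91514056 in Btc, and 86240182 to 86246942 of chromosome 6 in Tgfa. The residues between successive cysteines number 7, 4, 10, 1 and 8 in each of the 4, and likewise in Hbegf. Nrg1 has 7, 5, 13, 1 and 8 residues there, and Egf has 7, 5, 10, 1 and 8 in the stretch that matched the motif. Areg shared 53.7% of these bases with Ereg, 57.4% with Btc and 47.2% with Tgfa, whereas Btc and Tgfa shared 62%. At this identity the genes can be told apart by reads of 75 bases, and no 75-base stretch of Areg, Btc, Egfr, Erbb2 or Erbb3 occurred in a transcript of another gene on either strand. Stretches shared with a gene on the opposite strand made up 2.31% of those of Ereg, 10.4% of Hbegf, 7.54% of Egf, 0.667% of Tgfa and 0.849% of Nrg1. On the same strand Nrg1 shared 0.651% of its stretches, which strand cannot resolve. For these genes, reads could be told from the antisense partner only by strand, and whether the counting used strand is not given in the sources used here.

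The other members lie apart from one another. Hbegf (ENSMUSG00000024486) is on chromosome 18 at 36637980 to 36649677 on the minus strand, Egf (ENSMUSG00000028017) on chromosome 3 at 129470410 to 129549093 on the minus strand, Tgfa (ENSMUSG00000029999) on chromosome 6 at 86172041 to 86252728 on the plus strand, and Nrg1 (ENSMUSG00000062991) on chromosome 8 at 32303906 to 33374825 on the minus strand. Among the receptors, Egfr (ENSMUSG00000020122) is on chromosome 11 at 16702198 to 16868158, Erbb2 (ENSMUSG00000062312) on the same chromosome at 98303203 to 98328542, both on the plus strand, and Erbb3 (ENSMUSG00000018166) on chromosome 10 at 128403392 to 128425811 on the minus strand. A second identifier of 186 bases also carries the symbol Nrg1, held at most 1 count in a uterus and was left aside.

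Total expected counts ranged from 13960725 in control 3 to 25906375 in control 2. Gp130 itself (listed as Il6st) stood at 631, 678 and 452 CPM (counts scaled to the size of the library) in controls 1, 2 and 3, and at 388, 350 and 362 CPM in Gp130 ecKO 1, 2 and 3, without overlap and with stroma and muscle in the same RNA (log2 fold change −0.68, SE 0.21, adjusted p = 0.12 by the quasi-likelihood test of edgeR). Control 2 was closer to Gp130 ecKO 2 and 3 than to the other controls. Over the 16605 tested genes, its log2(CPM + 0.5) correlated with Gp130 ecKO 2 at 0.967 and Gp130 ecKO 3 at 0.963, and with control 1 at 0.958 and control 3 at 0.946, as a description across genes within these libraries. Control 1 and control 3 correlated with each other at 0.946, so control 2 was no farther from its own group than they were. Control 3 had the lowest correlations with Gp130 ecKO (0.895 to 0.916). The main results are also given without control 2. The gap between gene length and effective length, which follows the length of the reads after trimming, was 75 bases in control 2, control 3 and Gp130 ecKO 3 and slightly less (74.98 or more) in the other 3 uteri, and the uteri were also compared within each side of that split. One group has a single uterus on each side (control 1 on the shorter side, Gp130 ecKO 3 at 75 bases), so those differences are values without a test.

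Of 8 lists of cell type markers, the summed levels of epithelium and stroma were separate between the groups, and those of the other 6 overlapped. The summed CPM of 10 epithelial markers was 2440 to 4310 in the controls and 5660 to 7590 in Gp130 ecKO, without overlap. Of these 10 markers 8 had a log2 fold change above 0 (47.1% of all tested genes), 4 were higher without overlap (15.7%), and 3 were higher at an unadjusted p under 0.05 (12.1%). Summed stromal markers were 3260 to 4060 in the controls and 1690 to 2640 in Gp130 ecKO, with 7 of 10 lower at that threshold (12.9% of all tested genes), and summed endothelial markers were 300.0 to 725 and 168 to 302, overlapping by a narrow margin, with 4 of 4 lower at that threshold. Smooth muscle markers overlapped (568 to 2780 and 475 to 2990 CPM), as did macrophage markers (150 to 219 and 75.5 to 166) and neutrophil markers (1.67 to 4.85 and 0.543 to 3.36), and blastocyst markers were low in both groups (4 to 13.8 and 5.38 to 7.73). Nearly all of the blastocyst sum was Eomes and Elf5, while Cdx2, Nanog, Pou5f1 and Fgf4 stood at no more than 0.316 CPM in any uterus. The gland list overlapped but reached 8700 CPM in Gp130 ecKO 1 against at most 1080 in any other uterus. Most of that sum was Prss29 (6550 CPM) and Prss28 (1880 CPM). Of the other gland markers in Gp130 ecKO 1, Foxa2 (25 CPM) and Spink1 (219 CPM) lay within the range of the other uteri. Cxcl15 (17.3 CPM) lay just below that range and Ttr (18.9 CPM) just above it. No marker of these lists passed the test, and their part in the results below was not tested.

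No member passed the test at an FDR under 0.05 and more than 2-fold change by edgeR's quasi-likelihood test, in which 0.157% of all tested genes passed (0.126% higher and 0.0301% lower). At an unadjusted p under 0.05 there were 2 of 9 tested members, Areg and Nrg1, against 25% of all tested genes. The groups did not overlap for 3 of the 9 (Areg, Egf and Nrg1), against 31.3% of all tested genes. Egf passed the filter only through the Gp130 ecKO uteri, where it is high, so its place in this count is selected on the difference, and 2 of the other 8 did not overlap. These shares lie near the background, so the counts are not a result about the family. DESeq2 called Areg and Nrg1, where it called 9.29% of all tested genes, and edgeR's exact test called Areg, where it called 7.54%. Without the filter the quasi-likelihood test called Areg alone among the members, and 0.351% of 29916 genes. In whole-uterus RNA, fewer cells of a type and less RNA per cell cannot be told apart. The labels number the uteri and say no more about their origin, so p-values measure the spread between these samples.

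**Figure D1:**
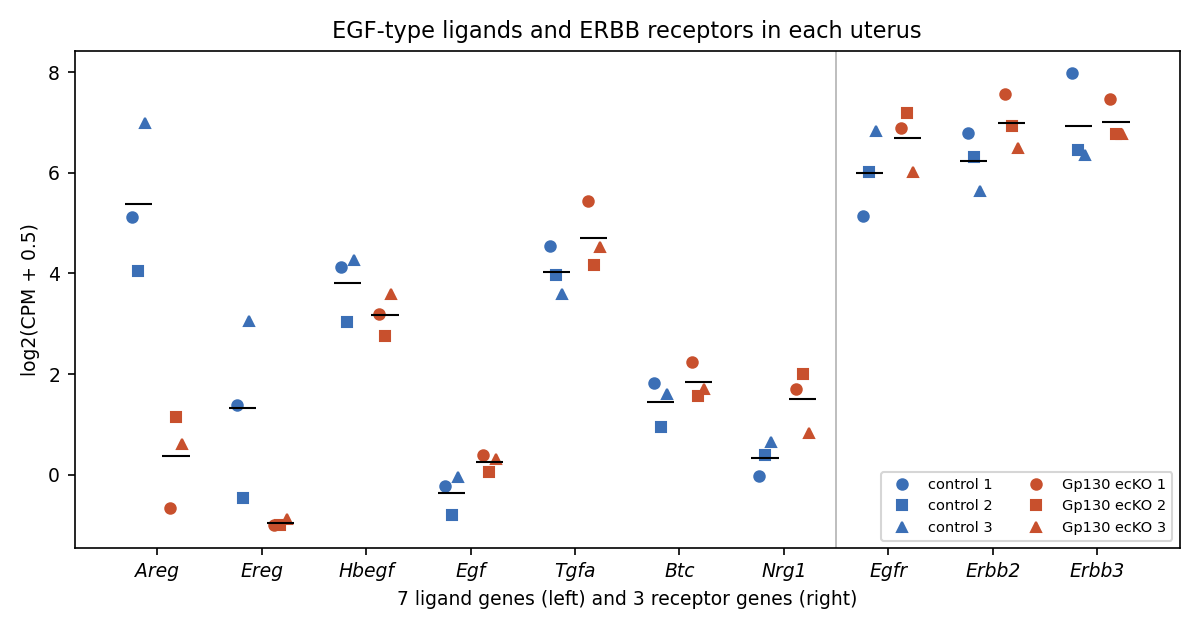
Level of each member in each uterus, as log2(CPM + 0.5), with controls in blue, Gp130 ecKO in orange, a marker shape for each uterus number and a bar at the group mean. Areg and Ereg are lower in every Gp130 ecKO uterus than in any control, Nrg1 and Egf are higher in every one, and the other 6 members overlap.

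Among the ligands, Areg had by far the largest difference of the tested members. It stood at 34.1, 16.1 and 127 CPM in controls 1, 2 and 3 and at 0.136, 1.73 and 1.04 CPM in Gp130 ecKO 1, 2 and 3, from 844, 417 and 1903 counts against 3, 45 and 25. The lowest control was thus far above the highest Gp130 ecKO uterus, and the controls themselves spread widely. The log2 fold change was −5.89 (SE 1.03), a 59.5-fold lower level, with an unadjusted p of 0.000589 and an adjusted p of 0.0635 by the quasi-likelihood test of edgeR. By the same edgeR test, the log2 fold change without control 2 was −6.29 and the adjusted p 0.0169. Without control 3 the log2 fold change was −4.67 and the adjusted p 0.137. Over the 14 alternatives the adjusted p ran from 1.49e-09 with DESeq2 to 0.176 without Gp130 ecKO 1. Within the uteri of the shorter length gap the difference of log2(CPM + 0.5) was −4.86, and within those at 75 bases it was −4.9.

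The summed epithelial markers lay above the controls in every Gp130 ecKO uterus, opposite to Areg. Per 1000 CPM of summed epithelial markers, a scale chosen after the data were seen, Areg stood at 7.93, 3.88 and 52 in the controls and at 0.0179, 0.305 and 0.181 in Gp130 ecKO. The groups had to stay apart on this scale, because Areg was lower and the marker sum higher in every Gp130 ecKO uterus. The exact two-sided permutation test gave p = 0.1, the smallest p that 3 uteri against 3 can give, and adds no support. The ratio of the group means was 0.0164 on the CPM scale and 0.00789 per epithelial marker. The markers did not move alike, since the log2 fold change was 2.19 for Krt19 and 1.32 for Krt8 but −0.19 for Epcam and −0.34 for Prom1. More epithelium and more marker RNA per epithelial cell cannot be told apart, so a ratio per marker is not a level per epithelial cell.

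The promoter of Areg is shown because this ligand had the largest difference of the tested members. It comes from the RefSeq table of start sites on GRCm38.p6, chr5:91139349-91139648 on the plus strand, with the motif matches in capitals. The first run of capitals is the cyclic AMP response element TGACGTCA, which begins 61 bases before the annotated start, and the second is the TATA motif TATAAA, which begins 31 bases before it.
Areg promoter: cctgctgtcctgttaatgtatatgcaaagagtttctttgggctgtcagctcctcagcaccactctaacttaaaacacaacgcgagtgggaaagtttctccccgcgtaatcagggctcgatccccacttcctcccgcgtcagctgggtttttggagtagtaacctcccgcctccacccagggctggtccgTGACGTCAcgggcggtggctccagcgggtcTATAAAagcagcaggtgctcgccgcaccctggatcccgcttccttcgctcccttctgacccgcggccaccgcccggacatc

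Both strands were searched for 5 motifs. TGACGTCA occurred in 1.79% of the 32851 windows of that table, and TATAAA in 13.6%. The STAT motif TTCNNNGAA (8.3% of windows), the palindromic estrogen response element (0.07%) and the progesterone response element (0.475%) did not match in the Areg window. Of the 10 members, 6 were in the table, and the windows of Egf, Tgfa, Btc, Egfr and Erbb2 held none of the 5 motifs. Ereg, Hbegf, Nrg1 and Erbb3 were not matched. A match describes letters in this window and is not a measured binding site.

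Ereg, the neighbour of Areg and also a ligand of EGFR and ERBB4, was listed with 52, 6 and 118 counts in controls 1, 2 and 3 and 0, 0 and 1 counts in Gp130 ecKO 1, 2 and 3. In CPM the controls stood at 2.1, 0.231 and 7.87 and Gp130 ecKO 3 at 0.0415. All 3 Gp130 ecKO uteri were below a floor of 3 counts, and control 2 was near it. Against that floor in each library, the Gp130 ecKO mean was at least 27.2-fold lower, a bound that became 9.33-fold without control 3 and 39.8-fold without control 2. Ereg entered the test only when the filter was dropped (adjusted p = 0.0865 by the quasi-likelihood test of edgeR) or in fits that left out control 2 or a Gp130 ecKO uterus, where the adjusted p ran from 0.0214 without control 2 to 0.247 without Gp130 ecKO 1. In the fits with the filter Ereg was kept only through the controls where it is high, so those p-values are selected on the difference and support nothing. The third gene of this neighbourhood, Epgn, had 2, 1 and 1 counts in the controls and 0, 1 and 0 in Gp130 ecKO, at or under the floor in both groups.

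Btc, on the same chromosome, did not show the pattern of Areg and Ereg. Its level was 3.03, 1.43 and 2.53 CPM in control uteri and at 4.2, 2.46 and 2.78 CPM in Gp130 ecKO. The groups overlapped, with a log2 fold change of 0.44 (SE 0.41) and an adjusted p of 0.529 by the quasi-likelihood test of edgeR. The ratio of group means was 1.35 in CPM and 0.706 per epithelial marker.

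Hbegf stood at 16.9, 7.71 and 18.7 CPM in the controls and at 8.64, 6.31 and 11.5 CPM in Gp130 ecKO. Control 2 lay among the Gp130 ecKO uteri, and the groups overlapped. Hbegf had a log2 fold change of −0.71 (SE 0.39, adjusted p = 0.297 by the quasi-likelihood test of edgeR), or −0.98 when control 2 was left out (adjusted p = 0.12 in that fit). Across the length split the difference was uneven, at −1.14 within the uteri of the shorter gap and −0.07 within those at 75 bases. Per 1000 CPM of epithelial markers, Hbegf was 3.92, 1.86 and 7.67 in the controls and 1.14, 1.11 and 2 in Gp130 ecKO, still with overlap, and the ratio of group means went from 0.612 to 0.317.

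Tgfa stood at 23, 15.1 and 11.5 CPM in the controls and at 42.9, 17.5 and 22.6 CPM in Gp130 ecKO. The highest value belonged to Gp130 ecKO 1, and control 1 lay above Gp130 ecKO 2 and 3. Its log2 fold change of 0.74 (SE 0.4, adjusted p = 0.282 by the quasi-likelihood test of edgeR) became 0.28 without Gp130 ecKO 1. Per 1000 CPM of epithelial markers, Tgfa was 3.63 to 5.35 in the controls and 3.1 to 5.65 in Gp130 ecKO, so that the ratio of group means went from 1.68 to 0.926.

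Egf, which gives the family its name, was close to the detection limit. It had 9, 2 and 7 counts in the controls and 18, 14 and 18 in Gp130 ecKO, or 0.364, 0.0771 and 0.467 against 0.814, 0.538 and 0.746 CPM. The lowest Gp130 ecKO uterus lay above the highest control, with a log2 fold change of 1.29 (SE 0.6) and an adjusted p of 0.23 by the quasi-likelihood test of edgeR. Among the controls only control 3 reached the level the filter asks for, so Egf was tested because it is high in Gp130 ecKO, and this p and the separation support nothing. Without control 2 the log2 fold change was 0.8, and per epithelial marker the groups overlapped.

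Nrg1 had few counts as well. It stood at 12, 21 and 16 counts in the controls and at 61, 91 and 31 in Gp130 ecKO, or 0.485, 0.81 and 1.07 against 2.76, 3.5 and 1.29 CPM. The groups did not overlap, although Gp130 ecKO 3 lay just above control 3. The log2 fold change was 1.71 (SE 0.52), with an unadjusted p of 0.0122 and an adjusted p of 0.118 by the quasi-likelihood test of edgeR, which ran over the alternatives from 0.0381 with DESeq2 to 0.3. The difference was 1.87 within the uteri of the shorter length gap and 0.32 within those at 75 bases. Per 1000 CPM of epithelial markers Nrg1 overlapped between the groups (0.113 to 0.437 and 0.224 to 0.618).

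**Figure D2:**
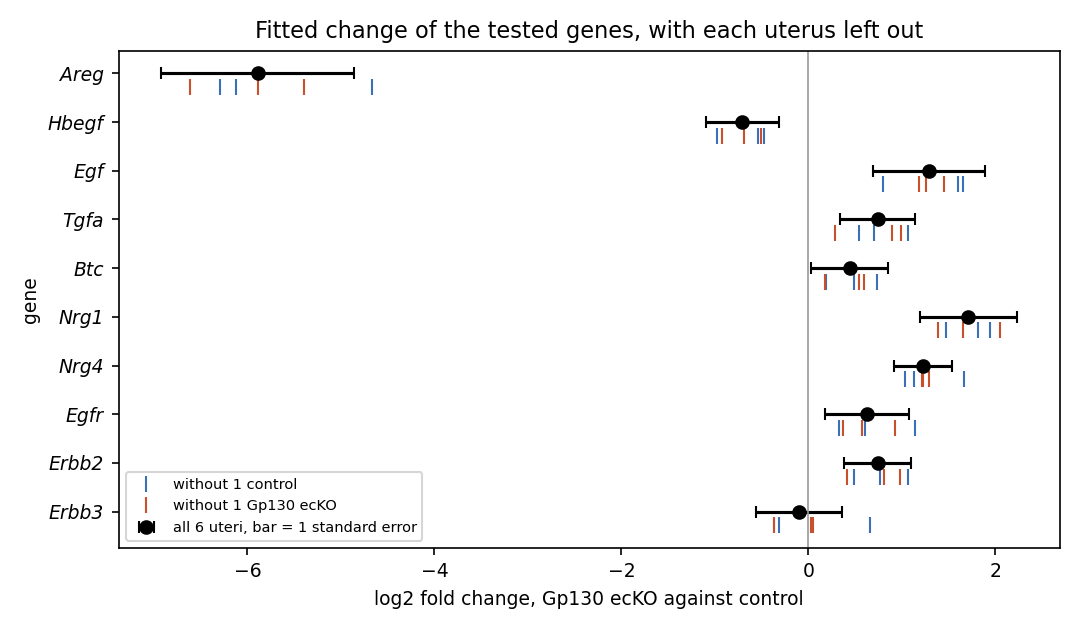
Log2 fold change of Gp130 ecKO against control for the 9 tested members and Nrg4 from edgeR's quasi-likelihood fit, as a point with a bar of 1 SE, with ticks for the fits that left out 1 control (blue) or 1 Gp130 ecKO uterus (orange). Areg lies between −6.61 and −4.67 in those fits, and Erbb3 lies on both sides of 0, between −0.37 and 0.66.

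Levels of different genes were set side by side in the authors' TPM, which is scaled for transcript length. Among the members of the control uteri, Areg had the highest median TPM, 36.91, with a range of 18.3 to 154.21 that overlapped that of the next gene, Erbb2. Below Erbb2 (median TPM 21.36) and Erbb3 (19) came Hbegf (10.1), Egfr (8.82) and Tgfa (4.39), then Btc (1.46), Ereg (0.64), Nrg1 (0.33) and Egf (0.26). Neighbours in this order were separate in range only between Erbb3 and Hbegf and between Tgfa and Btc. In Gp130 ecKO the receptors led, with median TPM of 37.64 for Erbb2, 27.46 for Erbb3 and 20.15 for Egfr. There Areg ranked eighth by median TPM at 1.12 (0.17 to 2.29), below Tgfa (6.29), Hbegf (5.22), Btc (1.42) and Nrg1 (1.29), and above Egf (0.39) and Ereg (0). In that order Hbegf and Btc, and Egf and Ereg, were the neighbours whose ranges were separate. Of the 10 members, 6 had a higher median TPM in Gp130 ecKO than in the controls.

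The make-up of the ligand transcripts differed accordingly. The summed TPM of the 7 ligands was 56.1, 28.7 and 175 in the controls and 22.7, 15.4 and 15.8 in Gp130 ecKO. Areg made up 65.8%, 63.8% and 87.9% of that sum in the controls and 0.749%, 14.9% and 7.09% in Gp130 ecKO. The difference of the group means was −65 percentage points (p = 0.1, exact two-sided permutation test, the smallest possible). This separation follows from the Areg levels given above, which did not overlap either, so its p adds no support. With Areg and Ereg taken out, the summed TPM of the remaining 5 ligands was 18.5, 10.3 and 18.4 in the controls and 22.5, 13.1 and 14.7 in Gp130 ecKO, and the groups overlapped (p = 0.9, exact permutation test). The most abundant of the 7 ligand transcripts was Areg in all 3 controls and Tgfa in all 3 Gp130 ecKO uteri, where Tgfa made up 58.9%, 38.6% and 39.8% of the summed TPM against 11.4%, 15.3% and 2.06% in the controls. Hbegf made up 7.08% to 18% of the summed TPM in the controls and 23% to 39.1% in Gp130 ecKO. In Gp130 ecKO 3 Tgfa led Hbegf by little, at 39.8% against 39.1%. Since shares add up to the whole, those of the other ligands move when that of Areg does.

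**Figure D3:**
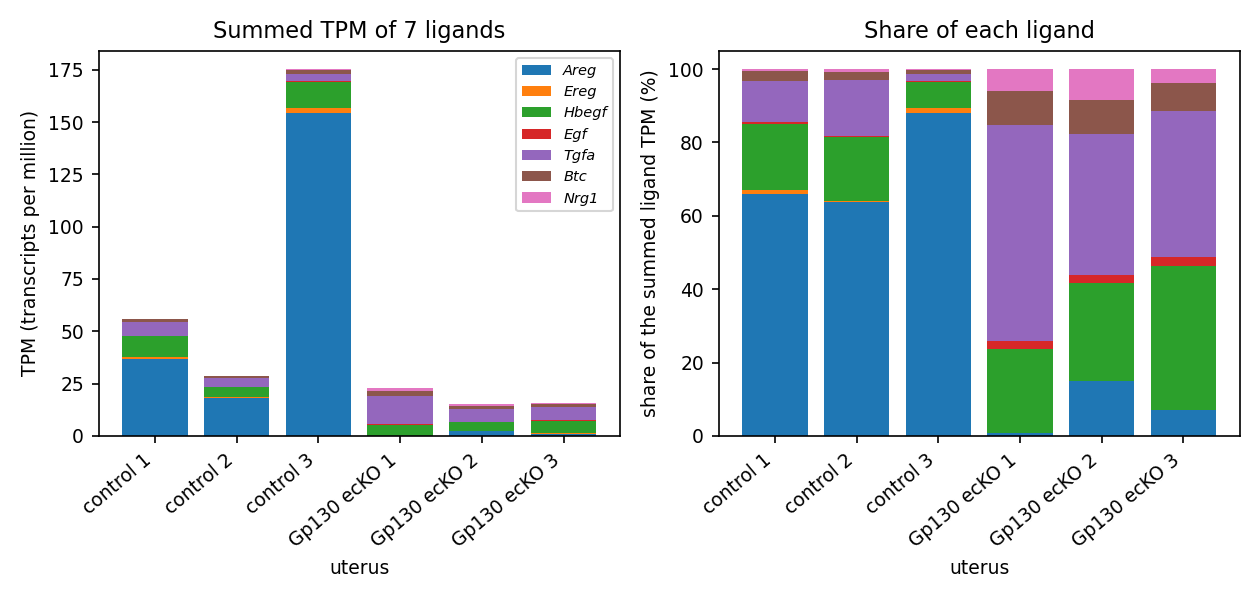
Left, summed TPM of the 7 ligand genes in each uterus, stacked by gene; right, the same as a share of the sum in percent. Areg takes 63.8% to 87.9% of the sum in the controls and 0.749% to 14.9% in Gp130 ecKO, where Tgfa takes 38.6% to 58.9%.

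The other ligand genes of the family were added to see whether the 7 gave the whole picture. Nrg4 (neuregulin 4, a ligand of ERBB4) lies on chromosome 9 at 55121336 to 55234128 on the minus strand. It stood at 6.76, 14.8 and 8.6 CPM in the controls and at 24, 24.3 and 22.7 CPM in Gp130 ecKO. The Gp130 ecKO uteri lay close together and above every control, of which control 2 was the highest. The log2 fold change was 1.23 (SE 0.31), with an unadjusted p of 0.00502 and an adjusted p of 0.0941 by the quasi-likelihood test of edgeR. Without control 2 it was 1.66 with an adjusted p of 0.0238, and over the 14 alternatives the adjusted p of Nrg4 ran from 0.00641 with DESeq2 to 0.26 without Gp130 ecKO 1. Within the sides of the length split the difference was 1.76 and 0.97. Of the 75-base stretches of Nrg4, 9.05% occurred in genes on the opposite strand, which include Fbxo22.

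With Nrg4, Nrg2, Nrg3 and Epgn in the sum, the summed TPM of the 11 ligands was 62.2, 42.7 and 184 in the controls and 46, 39.7 and 37.4 in Gp130 ecKO, and the groups overlapped. Nrg4 made up 9.22%, 30.9% and 3.96% of this sum in the controls and 48.3%, 57.5% and 54.7% in Gp130 ecKO. Areg made up 59.3%, 42.9% and 84% in the controls and 0.37%, 5.77% and 3% in Gp130 ecKO. By TPM, the leading transcript of the 11 was thus Areg in every control and Nrg4 in every Gp130 ecKO uterus. Nrg2 overlapped between the groups at 0.607, 1.08 and 1.53 CPM against 1.04, 1.54 and 1.16 CPM (log2 fold change 0.26, SE 0.45, adjusted p = 0.736 by the quasi-likelihood test of edgeR), and Nrg3 had 0 counts in all 6 uteri.

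The receptors of this ligand set overlapped between the groups. Erbb2, the partner receptor without a ligand of its own, stood at 110, 78.8 and 49.1 CPM in the controls and at 188, 121 and 89.2 CPM in Gp130 ecKO. Only control 1 lay above a Gp130 ecKO uterus, the third. The log2 fold change of Erbb2 was 0.74 (SE 0.36, adjusted p = 0.242 by the quasi-likelihood test of edgeR), and its difference within the sides of the length split was 0.45 and 0.51. Per 1000 CPM of epithelial markers Erbb2 was 25.5, 19 and 20.1 in the controls and 24.7, 21.3 and 15.6 in Gp130 ecKO, with a ratio of group means of 0.953 in place of 1.67 on the CPM scale.

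Erbb3, the receptor of neuregulins, stood at 251, 87 and 81.3 CPM in the controls and at 177, 108 and 108 CPM in Gp130 ecKO. Control 1 had more than any other uterus, and the other controls had less than every Gp130 ecKO uterus. Erbb3 had a log2 fold change of −0.1 (SE 0.46, adjusted p = 0.906 by the quasi-likelihood test of edgeR), and its sign was not stable. Leaving out control 1 gave 0.66, leaving out Gp130 ecKO 2 gave 0.03 and leaving out Gp130 ecKO 3 gave 0.05. Per 1000 CPM of epithelial markers the groups overlapped too, and the ratio of group means was 0.544 in place of 0.936 on the CPM scale.

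Egfr, the receptor of Areg, Ereg, Hbegf, Egf, Tgfa and Btc, stood at 34.8, 64.4 and 113 CPM in the controls and at 118, 146 and 63.9 CPM in Gp130 ecKO. Gp130 ecKO 3 lay below control 2, and control 1 was the lowest of the 6 uteri. Egfr had a log2 fold change of 0.63 (SE 0.45, adjusted p = 0.413 by the quasi-likelihood test of edgeR). The difference was 1.9 within the uteri of the shorter gap, where control 1 was the only control, and −0.42 within those at 75 bases, where Gp130 ecKO 3 was alone in its group. The direction also differed with the scale, since the ratio of group means was 1.54 in CPM and 0.748 per epithelial marker.

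Erbb4, the remaining receptor of the family, had 0 counts in every control and 23, 2 and 11 counts in Gp130 ecKO 1, 2 and 3. A count of 0 leaves room for up to 0.116 to 0.2 CPM in these controls, on the floor of 3 counts per library and for counting error only. Against that floor the Gp130 ecKO mean was at least 3.6-fold higher, and at least 1.83-fold without Gp130 ecKO 1. Erbb4 entered the test without the filter (adjusted p = 0.176 by the quasi-likelihood test of edgeR) and in 4 fits that left out a uterus, where the adjusted p ran from 0.13 to 0.242. The filter kept it there through Gp130 ecKO alone, so these p-values support nothing either.

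The summed TPM of the 4 receptors was 84, 49.2 and 49 in the controls and 115, 92.6 and 53 in Gp130 ecKO, and overlapped (p = 0.2, exact permutation test). Erbb3 made up 62%, 38.6% and 38.7% of that sum in the controls and 35.8%, 29.7% and 42.3% in Gp130 ecKO. Egfr varied most, from 5.2% to 32.1% in the controls and from 15.5% to 29.7% in Gp130 ecKO. The summed TPM of the 7 ligands, given above, was below that of the receptors in controls 1 and 2 and in all 3 Gp130 ecKO uteri, and above it in control 3.

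Transcript length, as RSEM weights it by the estimated share of each isoform, was compared for the 5 members with several annotated transcripts and at least 20 counts in every uterus. Hbegf was 2134, 2074 and 2167 bases long in the controls and 2375 bases in each Gp130 ecKO uterus. The groups of Hbegf did not overlap, at a difference of 250 bases (p = 0.1, exact two-sided permutation test, the smallest possible). One of 5 members is near the background, since 21% of 11308 genes examined the same way did not overlap, 10.5% being longer in Gp130 ecKO. Egfr was 9899, 9548 and 10070 bases long in the controls and 8237, 8101 and 9724 bases in Gp130 ecKO. The pair of Gp130 ecKO uteri with the shorter Egfr also had the highest Egfr CPM and the shorter length gap, whereas control 1, with the same length gap, had the lowest CPM and a long Egfr. The groups overlapped for Egfr (p = 0.2, exact permutation test) and for Tgfa, Btc and Erbb2.

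**Figure D4:**
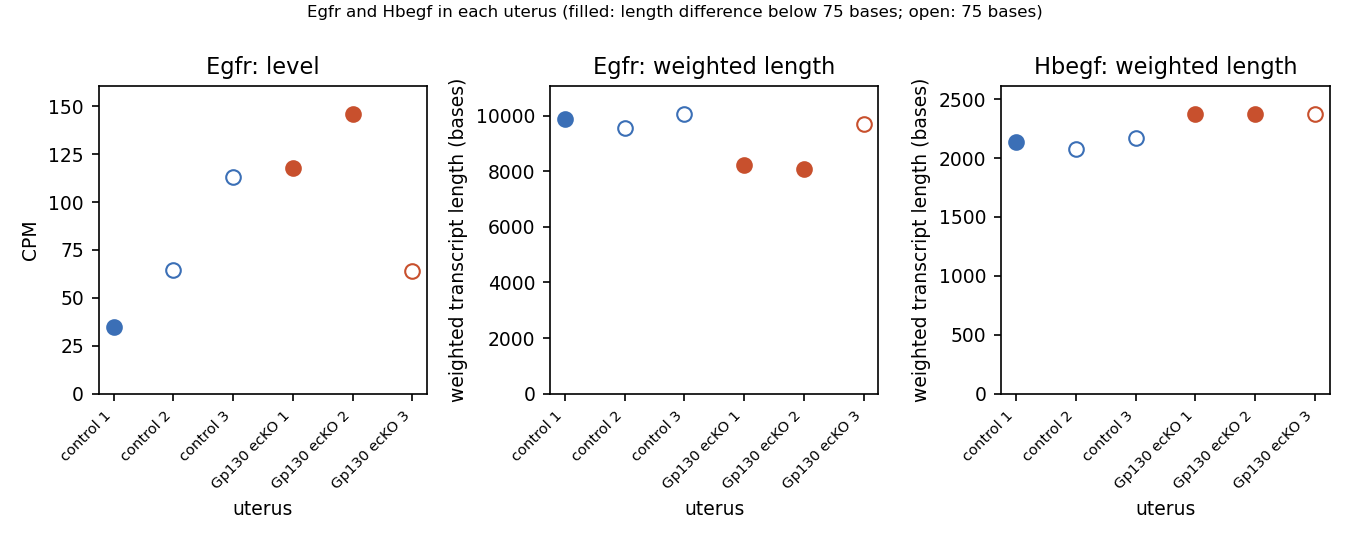
Egfr level in CPM (left), abundance-weighted Egfr transcript length in bases (middle) and abundance-weighted Hbegf transcript length in bases (right) in each uterus, with controls in blue and Gp130 ecKO in orange. Filled points are uteri whose length gap is below 75 bases and open points those at 75; Hbegf is at 2375 bases in all 3 Gp130 ecKO uteri and at 2074 to 2167 in the controls.

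Across the 6 uteri, the members did not vary as one. Of log2(CPM + 0.5), Tgfa and Erbb2 correlated at 0.9, Nrg1 and Egfr at 0.86 and Areg and Hbegf at 0.69, whereas Areg and Erbb2 correlated at −0.79. These values describe 6 uteri that include both groups. The genes most like Areg, among tested genes with a mean CPM of at least 1, were Clec2d (0.999) and Hip1 (0.997). Hip1 stood at 82.1, 63.9 and 130 CPM in the controls and at 12.7, 25.2 and 19.2 CPM in Gp130 ecKO, in the same order of uteri as Areg. The pair most like each other tested member were Cox6c2 (0.993) and Defb1 (0.991) for Hbegf, Appbp2 (0.978) and Chrnb2 (0.977) for Egf, Rassf7 (0.996) and Scamp4 (0.992) for Tgfa, and Rab27b (0.991) and Supv3l1 (0.987) for Btc. For Nrg1 they were Zzef1 (0.999) and Suco (0.995), for Egfr Zbtb25 (0.997) and Ggps1 (0.996), for Erbb2 Cr1l (0.998) and Inpp5k (0.996), and for Erbb3 Asf1a (0.99) and Arhgap29 (0.985). Each is the highest or next highest value over 6 uteri among all tested genes with a mean CPM of at least 1.

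Enzymes that release the ligands came next. Of 10 genes of the sheddases, iRhoms and their inhibitor Timp3, none passed the test, 1 was higher and 3 were lower at an unadjusted p under 0.05 (12.1% and 12.9% of all tested genes), and the median log2 fold change was −0.31 against −0.05 for all tested genes. Adam17, the main sheddase of Areg, Ereg, Hbegf and Tgfa, was named after its values were seen and overlapped at 97.8, 86.6 and 80.9 CPM in control uteri and at 92.3, 90.1 and 101 CPM in Gp130 ecKO. Rhbdf1 (iRhom1), which brings ADAM17 to the cell surface, stood at 20.9, 17.5 and 29.1 CPM in control uteri and at 11.3, 11.5 and 6.72 CPM in Gp130 ecKO, without overlap (log2 fold change −1.18, SE 0.31, adjusted p = 0.0956 by the quasi-likelihood test of edgeR). Adam15, a metalloprotease of the same family, stood at 138, 101 and 74.5 CPM against 40.1, 53.6 and 55.4 CPM, also without overlap (−1.07, SE 0.26, adjusted p = 0.0876 by the same edgeR test). Adam19, a protease of neuregulin precursors, had a log2 fold change of −0.97 (adjusted p = 0.157), and Rhbdl2, a rhomboid protease, one of 1.25 (adjusted p = 0.174), and neither overlapped between the groups. DESeq2 and edgeR's exact test called Adam15 and Rhbdf1 in this list, where they called 9.29% and 7.54% of all tested genes. Summed stromal markers were lower in every Gp130 ecKO uterus than in any control, summed endothelial markers overlapped, and their part in this was not tested.

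Genes that restrain the receptors or route them to degradation were examined next. Of 13 tested, none passed the test or reached an unadjusted p of 0.05 in edgeR's quasi-likelihood test (25% of all tested genes did), DESeq2 and edgeR's exact test called none either, and the median log2 fold change was 0.12. Cblb, a ubiquitin ligase acting on activated receptors, stood at 20.6, 14.7 and 20.5 CPM in the controls and at 13.9, 13.5 and 10.6 CPM in Gp130 ecKO. Sh3kbp1, an adaptor of the Cbl ligases, stood at 44.3, 46.6 and 67.8 CPM against 43.8, 38 and 27.5 CPM. Rnf41, a ubiquitin ligase of ERBB3, stood at 46, 45.2 and 35.4 CPM against 49.4, 51.3 and 50.4 CPM. The groups of these 3 of the 13 genes did not overlap, against 31.3% of all tested genes, at log2 fold changes of −0.55, −0.54 and 0.25.

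Of 34 adaptors and effectors downstream of the receptors, 1 rose and none fell (0.126% and 0.0301% of all tested genes), 8 were higher and 2 lower at an unadjusted p under 0.05 (12.1% and 12.9% of all tested genes), and the median log2 fold change was 0.06. The gene that rose was Stat5b, a transcription factor activated by growth factor and cytokine receptors. It stood at 43, 46.4 and 43.3 CPM in the controls and at 102, 101 and 109 CPM in Gp130 ecKO. The spread within each group was small beside the gap between them, at a log2 fold change of 1.23 (SE 0.14, adjusted p = 0.0429 by the quasi-likelihood test of edgeR). The call was lost in 8 of 14 alternatives, among them each fit that left out a uterus other than control 2, and the adjusted p ran from 4e-12 with DESeq2 to 0.137 without control 3, while the log2 fold change stayed between 1.18 and 1.3.

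Stat5a, the neighbouring paralogue of Stat5b on chromosome 11, stood at 14.1, 28.7 and 23.1 CPM in the controls and at 65, 83.5 and 111 CPM in Gp130 ecKO. The groups did not overlap, with a log2 fold change of 1.98 (SE 0.31) and an adjusted p of 0.0548 by the quasi-likelihood test of edgeR, or 0.0217 without control 2. In the other 5 fits that left out a uterus it was 0.112 to 0.142, and over all 14 alternatives it ran from 2.5e-06 with DESeq2 to 0.142. The genes are alike in sequence, and RSEM divided any reads they share by its model. Pik3r1, the regulatory subunit of the lipid kinase PI3K, stood at 127, 179 and 202 CPM against 383, 357 and 310 CPM (1.05, SE 0.22, adjusted p = 0.0732 by that edgeR test). Of this list, DESeq2 and edgeR's exact test called Stat5b, Stat5a and Pik3r1, where they called 9.29% and 7.54% of all tested genes. Eps8, an EGFR substrate that acts on actin, had a log2 fold change of 0.78 (adjusted p = 0.0977), and Akt2, a kinase downstream of PI3K, one of −0.49 (adjusted p = 0.118), and neither overlapped. The summed epithelial markers also lay above the controls in every Gp130 ecKO uterus, and their part in the values of Stat5b, Stat5a, Pik3r1 and Eps8 was not tested.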

How the data were processed

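The authors extracted RNA from whole uteri, made strand-specific poly(A) libraries, trimmed the reads (fastp 0.23.2), removed ribosomal RNA reads with SortMeRNA, mapped to GRCm39 (STAR 2.7.10a) and estimated gene counts (RSEM 1.3.3), per the methods and the submitters' processing notes. These also name R 4.2.1 and edgeR 3.38.4. The annotation release and the strand setting are not given in the sources used here. The deposited tables hold the expected count, TPM and FPKM of each gene, with its length and effective length. The deposited FPKM was not used, and the authors' TPM served only to compare levels between genes.

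Expected counts were rounded and tested in R 4.3.3 with edgeR 4.0.16 (filterByExpr by group, TMM, glmQLFit without its legacy form, glmQLFTest, Benjamini-Hochberg over 16605 genes). Genes were called at an FDR under 0.05 and more than 2-fold change. CPM is relative to the TMM-scaled library. A fold against a group at or below 3 counts per library is a bound. Single values used an exact two-sided permutation test, which cannot go below 0.1. Totals were 13960725 to 25906375 counts per uterus. DESeq2 1.42.0 and other settings were alternatives. Scripts were tested on simulated data.

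GENCODE M39 held 56017 of the 56748 identifiers and gave symbols, positions and transcripts. It may differ from the authors' release. Promoters came from RefSeq on GRCm38.p6, where 6 of 10 members matched. Genes named were the members, the other family genes and, in each list, the called genes and up to 4 with the smallest p, no overlap and a mean CPM of at least 1, plus 2 like genes per member. Members and lists were chosen with earlier results of these data known. The length split and the epithelial scale were chosen after seeing the data.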

Additional observations from a re-analysis of the deposited data

How the results depend on the processing

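The count of members called was 0 by edgeR's quasi-likelihood test, 2 with DESeq2, 1 with edgeR's exact test and 1 without the filter. In fits that omitted 1 uterus it ran from 0 to 2, where the 2 were Areg and Ereg without control 2, and Ereg passed the filter there only through the controls where it is high. Of all tested genes 26 were called, against 1542 with DESeq2, 1252 with the exact test, 7 with the legacy form of the quasi-likelihood test and 105 without the filter. With each uterus left out this count ran from 1, without Gp130 ecKO 3, to 897, without control 2. Among genes of the 4 pathway lists 1 was called, against 6 with DESeq2, 6 with the exact test, 0 with the legacy form, 2 without the filter and 0 to 3 with each uterus left out. The added length split as a covariate gave 0 members, 7 genes in all and 0 pathway genes. The cause of these shifts was not tested.

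The sign of the Erbb3 log2 fold change turned to 0.07 with the replicate block, 0.66 without control 1, 0.03 without Gp130 ecKO 2 and 0.05 without Gp130 ecKO 3, and its values with each uterus left out ran from −0.37 to 0.66. That of Nrg2 turned to −0.00361 without control 1, in a range up to 0.56. The other tested members kept their direction under all 14 alternative fits. On the added scale of epithelial markers, ratios of group means above 1 in CPM went below it for Tgfa (0.926), Btc (0.706), Egfr (0.748) and Erbb2 (0.953). The number of members with separate weighted lengths ran from 1 to 3 with each uterus left out, with 3 without control 2. The difference in the Areg share ran from −69.3 to −57.3 percentage points, and was −59 with 11 ligands in the sum.

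The labels do not say whether uteri of the same number were paired. Deviations of same-numbered uteri from their group means correlated at 0.104, 0.0691 and −0.196, and not every uterus correlated best with its own number. Deviations from a mean of 3 uteri are tied to one another, so these values cannot settle whether the numbers mark pairs. With the replicate block, 0 members, 6 genes in all and 0 pathway genes were called, and the Areg log2 fold change was −5.63 (adjusted p = 0.0866 in that edgeR fit). Ereg, Erbb4, Egf, Nrg1, Btc, Nrg2, Nrg3 and Epgn had at most 118 counts in any uterus, and how far depth limited their values was not tested.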
